A study of Mus musculus with 16 samples.

Results

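Microtubule and axonal transport genes were examined in ribosome-bound RNA of the mouse retina. The set was defined by gene symbol alone, as kinesins (Kif), kinesin light chains (Klc), alpha, beta and gamma tubulins with the gamma-tubulin ring proteins (Tub), cytoplasmic dynein subunits (Dync, Dynl), the stathmins Stmn1 to Stmn4, and the microtubule-associated proteins Mapt, Map1a, Map1b, Map2, Map4 and Map6. It held 90 genes of the 47451 symbols in the count tables and 428 of the 117860 transcripts. Each gene was represented by its transcript with the highest mean count over the 16 libraries. Of the 90, 87 had a count in at least 1 library and 71 passed the filter on low counts in the first of the 2 tables described next. The 19 that did not pass either filter averaged at most 6.69 counts per library, among them Tubb1, Tuba3a, Kif12, the ciliary kinesins Kif7 and Kif27, the mitotic kinesins Kif11 and Kif23 and the Dynlt1 copies.

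Translating ribosome affinity purification (TRAP) was used, in which an HA tag on the ribosomal protein Rpl22 allows tagged ribosomes, with the RNA on them, to be pulled down (IP) from a retinal lysate. All mice were at postnatal day 60 and all carried Opn4-Cre, the melanopsin Cre driver that marks intrinsically photosensitive retinal ganglion cells (ipRGCs). The first table held HA IPs and lysate inputs of Opn4-Cre; Rpl22-HA retinas, and the same from retinas with Opn4-Cre but no tag (untagged), with 2 libraries in each of the 4 groups. The second held HA IPs of 4 Opn4-Cre; Rpl22-HA controls and of 4 Opn4-Cre; Rpl22-HA; Brn3bcKO-AP mice (Brn3b cKO), whose Brn3b (Pou4f2) was made conditional on Cre. Both retinas of an animal were combined in 1 lysate, and control 3 and cKO 4 were labelled female, the other 6 male.

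Microtubules are polymers of alpha and beta tubulin, and a neuron's axon is filled with them from soma to terminal. Kinesins mostly carry cargo toward the plus end, away from the soma, cytoplasmic dynein carries it back, and microtubule-associated proteins and stathmins set how stable the polymer is. Retinal ganglion cells are the only retinal neurons whose axons leave the eye, in the optic nerve, and are rich in this machinery.

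Libraries held 2332612 (untagged input 1) to 14512132 counts in the IP and input table, and 12994498 to 20350881 in the Brn3b table. HA IPs held markers of ganglion cells and of cones: all 11 pan-ganglion-cell genes, all 5 ipRGC genes and 11 of 12 cone genes were higher in IP than in input, and all 10 rod genes were lower. The HA IPs are therefore described as tagged cells, not as ipRGCs alone. Y-linked counts were at most 7 in the untagged libraries and at least 135 in the Rpl22HA libraries of the first table, against a common label of pooled sexes, so that tag and sex cannot be told apart in values that subtract the untagged IPs. Pou4f2, the targeted gene, measured 36.8 to 64.2 normalized CPM (counts scaled to a common library size) in the 4 control IPs and 18.8 to 34.0 in the 4 Brn3b cKO IPs, with a log2 fold change of -0.83 ± 0.22 (SE) and an adjusted p of 0.0547. The groups did not overlap, while the adjusted p missed 0.05. In these bulk samples fewer cells of a type and less RNA per cell cannot be told apart. The study counted fewer HA-labelled cells in the ganglion cell layer of Brn3b cKO than of control retinas of this line. HA-labelled cone density in this line did not differ significantly. Nor did the number of melanopsin-labelled cells, counted in other control and Brn3b cKO mice for which no Rpl22-HA is given. Its authors adjusted fold changes of selected ipRGC-enriched transcripts for the ratio of labelled ipRGCs to labelled cones, which was not done here.

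Tubulin isotypes differ most at their C-terminal tail, which projects from the microtubule surface and is where glutamates are added in chains. The end of the coding sequence is shown for 6 beta and 2 alpha tubulins, because the results below turn on which isotype was enriched and on whether short reads can tell the copies apart. Each run is the last 60 coding bases with the stop codon, 5′ to 3′, on the coding strand, from GENCODE M21 transcripts on GRCm38 (mm10), and capitals mark the in-frame glutamate codons GAA and GAG.
Tubb3: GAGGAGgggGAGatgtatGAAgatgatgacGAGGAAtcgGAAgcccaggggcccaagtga
Tubb2a: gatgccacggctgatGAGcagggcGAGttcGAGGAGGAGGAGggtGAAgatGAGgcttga
Tubb2b: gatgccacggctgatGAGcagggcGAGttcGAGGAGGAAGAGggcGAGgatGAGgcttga
Tubb4a: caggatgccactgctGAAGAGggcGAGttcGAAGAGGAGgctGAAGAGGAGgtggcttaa
Tubb4b: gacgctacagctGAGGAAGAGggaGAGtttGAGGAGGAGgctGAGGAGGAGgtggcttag
Tubb5: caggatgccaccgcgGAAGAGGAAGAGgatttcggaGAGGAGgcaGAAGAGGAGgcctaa
Tuba1c: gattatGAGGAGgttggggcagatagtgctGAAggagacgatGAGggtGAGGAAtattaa
Tuba4a: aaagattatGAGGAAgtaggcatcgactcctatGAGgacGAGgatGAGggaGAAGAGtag

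Every tail lay within 1 exon. Tubb3 (chr8:123421623-123421682, plus strand) ended in a lysine codon and held 7 glutamate codons, whereas the other 5 beta tails ended in alanine and held 8 to 10. The Tubb3 tail differed from each of these 5 at 33 to 36 of 60 bases. Tubb2a (chr13:34074468-34074527) and Tubb2b (chr13:34127471-34127530), both on the minus strand, differed at 3 bases. The tail of Tuba1c (chr15:99037950-99038009, plus strand) ended in a tyrosine codon, the residue that is removed and put back on most alpha tubulins. Tuba4a (chr1:75215622-75215681, minus strand) ended in glutamate. Along the whole transcript, the share of 37-base windows, the length of a read, found in no other gene's transcript was 98.4% for Tubb3, 99.0% for Tubb4a, 97.5% for Tubb5 and 97.7% for Tuba4a, but 46.5% for Tubb2a, 56.4% for Tubb2b, 39.6% for Tubb4b, 24.4% for Tuba1a, 25.2% for Tuba1b and 37.1% for Tuba1c. The latter 6 values are thus uncertain as values of single genes, as is Stmn1 with 59.5%.

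The first comparison asked which of these genes were enriched on tagged ribosomes over the whole-retina input. Of 71 tested members, 32 were higher in the IP (adjusted p under 0.05, edgeR's quasi-likelihood test), 1 was lower and 38 did not pass. Among all 14099 genes tested, 26.9% were higher and 12.1% lower. The median log2 fold change was 0.53 over the members and 0.21 over all genes, and 13 members were both called and over 2-fold higher (14.4% of all genes). Leaving out any 1 of the 4 Rpl22HA libraries cut the 32 calls to 16 (without IP 1), 19 (IP 2), 21 (input 1) or 18 (input 2), all of them among the 32. With counts restricted beforehand to transcripts higher in the HA IPs than in the untagged IPs, 18 were called. IP and input of a number were taken to share 1 lysate, as inputs were saved from it, although the labels do not pair them. With the lysate as a block the same 32 were higher and 3 were lower (Map4, Tuba1c and Tuba8). Of the 32, 13 were also higher in the untagged IPs over their inputs, and 7 of these had an untagged value at least as large as that in Rpl22HA libraries (Dync1h1, Dync2h1, Kif26b, Kif2a, Map2, Tubgcp4 and Tubgcp6). The difference between both enrichments passed upward for 21 of the 32 and downward for 2.

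**Figure D1:**
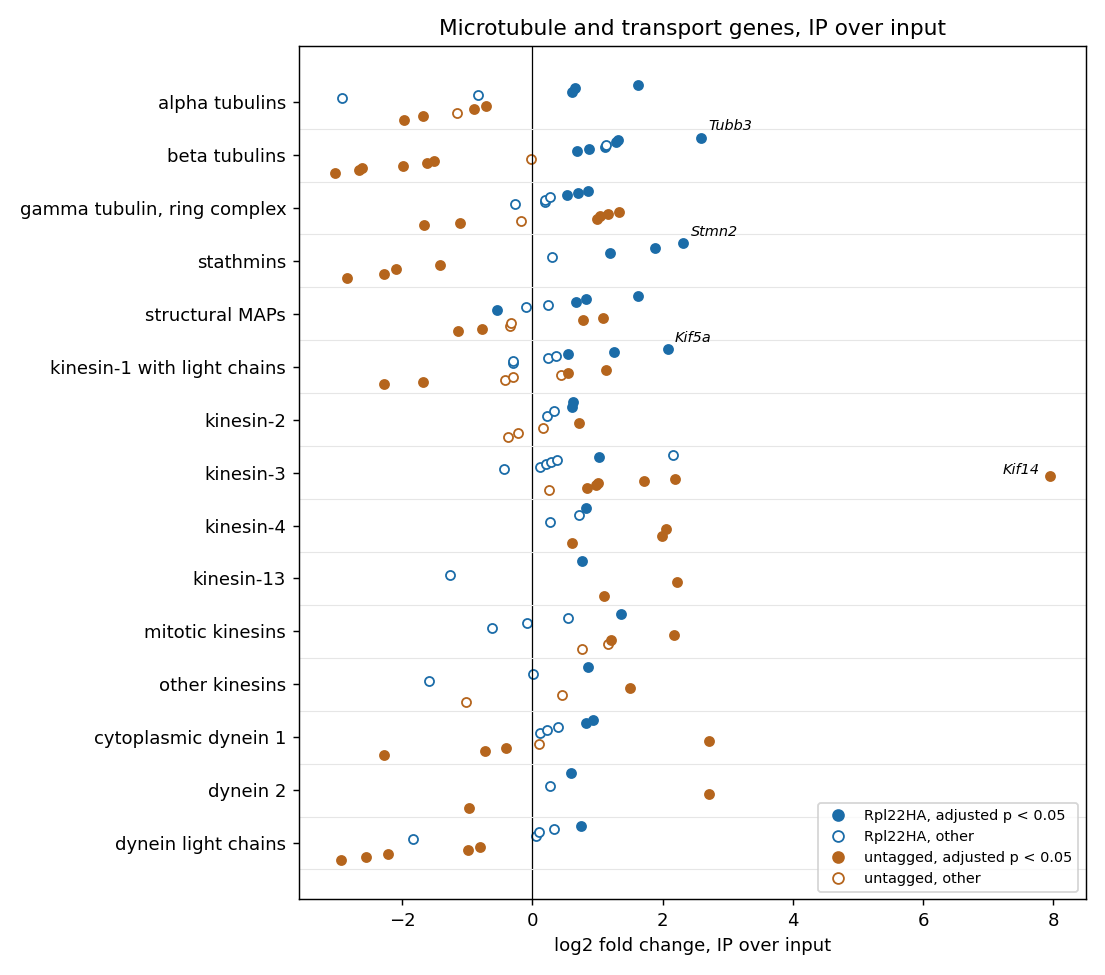
Log2 fold change of IP over input (x axis) for each of the 71 tested members, by role (y axis), in Rpl22HA retinas (blue) and untagged retinas (brown), with filled points at an adjusted p under 0.05. Beta tubulins and stathmins lie to the right of 0 in the Rpl22HA libraries and at or left of 0 in the untagged ones, where Kif14 at 7.95 rests on 2 inputs with no count.

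Beta tubulins held the largest called value, while stathmins had the higher median (1.54 against 1.13). All 7 tested beta isotypes had positive values and 6 were called. Tubb3, the neuronal isotype used as a ganglion cell marker, measured 463 and 374 CPM in the HA IPs, 72.5 and 66.8 in their inputs, 10.1 and 8.18 in the untagged IPs and 47.0 and 66.2 in the untagged inputs. Both HA IPs lay far above every other library, and both untagged IPs lay below every input. Its log2 fold change over input was 2.59 ± 0.19 (adjusted p 1.7e-08), the largest value among the called members. Tubb4b (1.31 ± 0.18), Tubb4a (1.29 ± 0.19), Tubb2a (1.11 ± 0.18), Tubb2b (0.87 ± 0.29) and Tubb5 (0.69 ± 0.19) were also higher. Tubb6, with few reads, had 1.13 ± 0.70 and did not pass (adjusted p 0.23).

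The mixture of beta tubulin messages differed between tagged cells and whole retina. Levels between genes were set against each other as CPM per kilobase of transcript. Tubb3 made up 12.9% and 14.1% of the summed level of the 6 isotypes in the 2 Rpl22HA inputs and 30.5% and 33.1% in the 2 HA IPs. Tubb5, the broadly expressed isotype, made up 38.2% and 38.8% of the inputs and 23.8% and 25.0% of the IPs. The IP and input values did not overlap for either gene. Tubb4a stayed at 9.91% to 11.5% in both. In the HA IPs the order per kilobase was Tubb3 (200.4 to 248), Tubb5 (164 to 178), Tubb2a (115 to 131), Tubb4b (102 to 115), Tubb4a (72.0 to 74.3) and Tubb2b (3.50 to 4.08). The ranges did not overlap, but Tubb2a and Tubb4b, neighbours in this order, were closer to each other than the libraries of either gene were.

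Alpha tubulins followed with smaller values. Tuba4a was the exception, with 195 and 171 CPM in the HA IPs against 62.8 and 56.6 in their inputs, and a log2 fold change of 1.62 ± 0.17 (adjusted p 1.6e-06). Tuba1a (0.65 ± 0.15) and Tuba1b (0.61 ± 0.16), the abundant neuronal pair, were higher too. Tuba8 (-0.83 ± 0.32) and Tuba1c (-2.93 ± 1.52) did not pass in the main fit. Both were called lower in some alternative fits, such as with the lysate as a block or with only the 4 Rpl22HA libraries. Tuba1c was present or nearly absent by library in a way no group followed, with 222, 183, 362 and 0 counts in the controls and 180, 240, 358 and 1 in the Brn3b cKO IPs. Of the gamma tubulin group, which nucleates microtubules, Tubg1 (0.85 ± 0.17), Tubgcp6 (0.70 ± 0.17) and Tubgcp4 (0.53 ± 0.20) were higher and the other 4 did not pass. The untagged IPs gave larger values for Tubgcp6 (1.34) and Tubgcp4 (1.16), and -1.12 for Tubg1.

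Stathmins, which bind tubulin dimers and favour disassembly, were enriched for 3 of 4 genes. Stmn2, the axonal member needed for axon maintenance, measured 332 and 287 CPM in the HA IPs and 66.2 and 57.9 in their inputs (log2 2.32 ± 0.18, adjusted p 3.3e-08). Stmn3 measured 666 and 633 against 189 and 162 (1.89 ± 0.16), and Stmn1 96.3 and 85.6 against 41.2 and 38.7 (1.19 ± 0.26, adjusted p 0.0019). For each of these genes both IPs lay above both inputs. DESeq2 did not call Stmn1 (adjusted p 0.12). Stmn4, with 21.9 and 21.6 against 15.99 and 19.3 CPM, did not pass (0.30 ± 0.19).

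Kinesin-1, the main carrier of fast axonal transport, differed by heavy chain. Kif5a, the neuron-restricted chain, measured 106 and 121 CPM in the HA IPs and 28.0 and 25.7 in their inputs, a log2 fold change of 2.08 ± 0.17 (adjusted p 6.3e-08). Kif5c, also neuronal, rose by 1.26 ± 0.17. Kif5b, the ubiquitous chain, measured 64.9 and 52.6 against 52.4 and 46.8 and did not pass (0.24 ± 0.18). As shares of the 3 heavy chains per kilobase, Kif5a went from 21.6% and 21.9% in the inputs to 38.0% and 42.4% in the IPs, and Kif5b from 41.0% and 42.8% to 19.3% and 24.2%. The share of Kif5c was 35.3% to 38.4% in these 4 libraries. Of the light chains, which link kinesin-1 to cargo, only Klc2 passed (0.54 ± 0.20, adjusted p 0.041), a call lost in 14 of 20 alternative fits. Klc1, the most abundant, had 0.36 ± 0.18, Klc3 -0.30 ± 0.19 and Klc4 -0.30 ± 0.18.

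Other kinesins were higher by less. Kif1a, which carries synaptic vesicle precursors, had 1.02 ± 0.16, and Kif21a of the kinesin-4 family 0.82 ± 0.19. Kif2a, a kinesin-13 that shortens microtubules, had 0.77 ± 0.18, and the kinesin-2 motors Kif3c and Kif3a had 0.63 ± 0.17 and 0.61 ± 0.15. Kif26b (0.86 ± 0.30, adjusted p 0.036) passed at 3.25 to 6.85 CPM in the 4 libraries. On untagged beads Kif1a (0.97), Kif21a (0.61), Kif2a (1.09) and Kif26b (1.49) were higher over input too, and Kif3a (-0.37) and Kif3c (0.16) did not pass. Kif1b, the most abundant kinesin-3, did not pass (0.28 ± 0.17), nor did Kif21b (0.27 ± 0.18).

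Kif22, a chromokinesin of dividing cells, stood out among the mitotic kinesins with 94 and 71 counts in the HA IPs and 25 and 20 in the inputs (log2 1.36 ± 0.35, adjusted p 0.0061). The untagged IP over input gave nearly the same value, 1.21 (adjusted p 0.019), and the difference between the 2 enrichments, 0.15, did not pass (adjusted p 0.85). The call over input was lost without Rpl22HA IP 1 (adjusted p 0.15) or Rpl22HA input 2 (0.081). The other 3 tested mitotic kinesins, Kif20a, Kif18a and Kif20b, did not pass. Of 6 general markers of dividing cells, 1 (Ccna2) passed the filter and was higher (1.15). Their summed level was 9.17 to 12.1 CPM in the HA IPs, 5.25 to 5.69 in their inputs, 31.2 to 39.9 in the untagged IPs and 2.31 to 4.09 in the untagged inputs, with 3 of the 6 at 0 in both HA IPs. Their part in the Kif22 value was not tested.

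Of 5 subunits of cytoplasmic dynein 1, 2 were higher over input, and they differed in the untagged IPs. Dync1i1, the neuronal intermediate chain, had 48.8 and 45.9 CPM in the HA IPs and 26.6 and 23.0 in the inputs (0.93 ± 0.20, adjusted p 0.0019). Dync1h1, the heavy chain, had 81.2 and 133 against 64.2 and 57.2 (0.82 ± 0.20), with the 2 IPs further apart from each other than the 2 inputs. On untagged beads Dync1i1 had -2.29 and Dync1h1 2.72. Dync1li2, Dync1li1 and Dync1i2 had 0.39 to 0.12 and did not pass. Of dynein 2, the motor of cilia, the heavy chain Dync2h1 was higher (0.59 ± 0.17). Of the light chains, Dynlt3 alone was higher (0.75 ± 0.16), and Dynll2 (0.10 ± 0.16) and Dynlrb1 (0.06 ± 0.16) were near 0, with a sign that turned under other scalings.

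Structural microtubule-associated proteins went both ways. Map1a, enriched in mature neurons, had 81.0 and 83.7 CPM in the HA IPs and 30.1 and 23.5 in the inputs (1.62 ± 0.17, adjusted p 1.3e-06). Mapt, the axonal protein tau, had 0.82 ± 0.16 and Map2, the dendritic one, 0.66 ± 0.18. In the untagged libraries Map2 was higher over input by more (1.09), and Mapt had -0.35. Map1b, the most abundant of them in the HA IPs by CPM, measured 402 and 418 against 494 and 383 and did not pass (-0.10 ± 0.17). Map4, which is widely expressed outside neurons, was the only member called lower in the main fit, while some alternative fits called others lower too. It measured 312 and 319.8 CPM in the IPs and 483 and 435 in the inputs (-0.54 ± 0.16, adjusted p 0.014). That call was lost without either Rpl22HA input (adjusted p 0.16 without input 1 and 0.052 without input 2). In the untagged libraries Map4 was lower over input by more (-1.15). The difference between both enrichments passed above 0 (0.61), a call that was lost in 11 of 15 alternative fits.

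Map4 held 2 kinds of transcript that moved in opposite directions, which was noticed after its values were seen. Of its 15 tested transcripts, 11 were lower in the IP, 3 did not pass and 1 was higher. The transcript that stands for the gene has 4925 bases and 11 exons (chr9:110052048-110083946, plus strand) with 933 codons before the stop. The one that was higher has 3446 bases and 4 exons (chr9:109931800-110005739) with 99 codons, lies upstream, and shares no base with the former. It measured 128 and 106 CPM in the HA IPs, 44.7 and 44.0 in their inputs, 10.99 and 12.1 in the untagged IPs and 52.0 and 46.4 in the untagged inputs. Its log2 fold change was 1.39 (adjusted p 3.8e-06), and it made up 29.0% and 24.9% of the summed CPM of both transcripts in the HA IPs, against 8.48% and 9.18% in their inputs. In the Brn3b cKO comparison it had -0.43 (adjusted p 0.28) and the 4925-base transcript 0.28 (adjusted p 0.50). Over the set, 46 members had more than 1 tested transcript, and in 28 of them all transcripts had the same sign in IP over input.

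**Figure D2:**
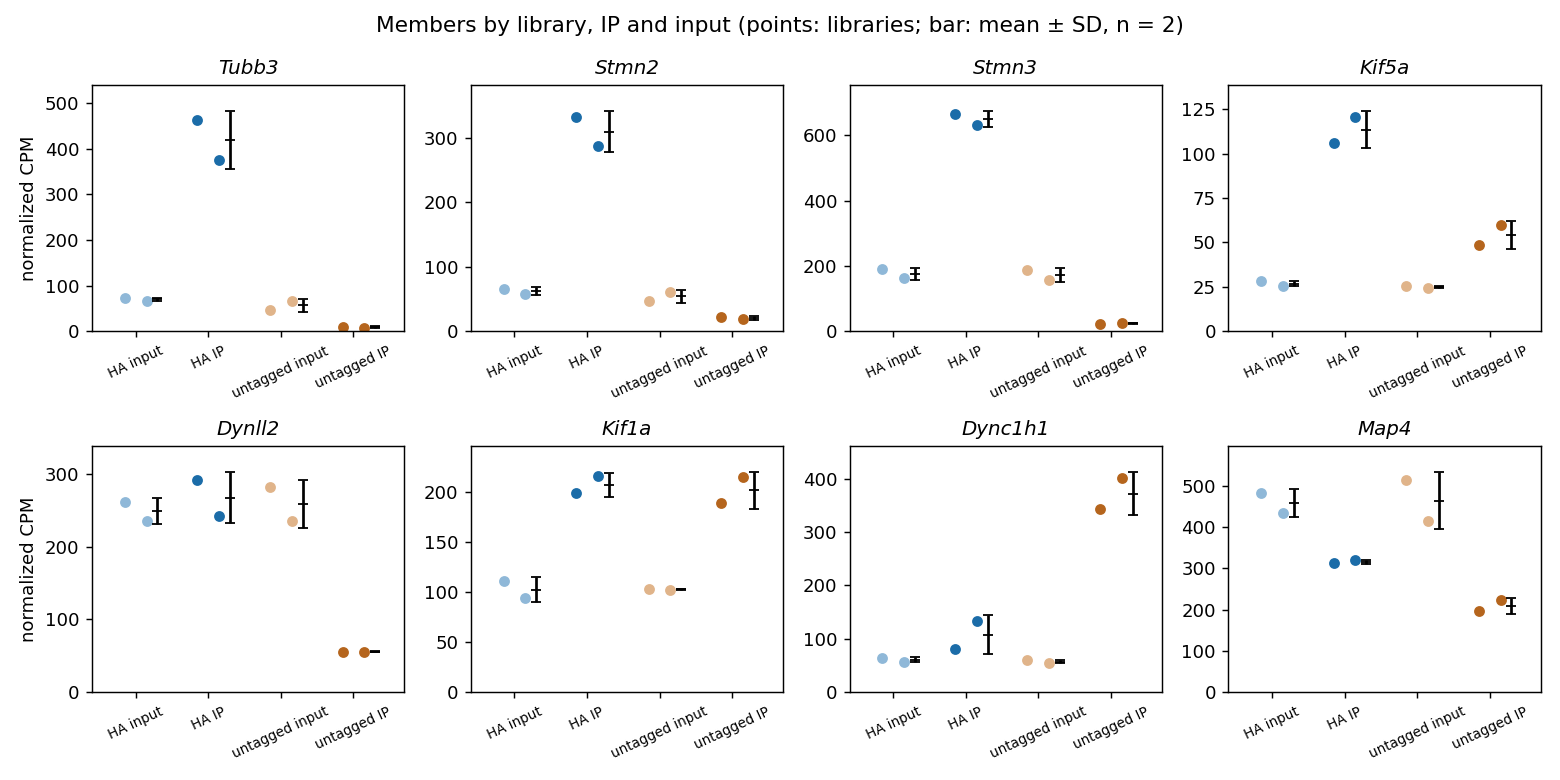
Normalized CPM (y axis) of 8 members in each library of the first table, by group (x axis), with bars for mean ± SD (n = 2). Tubb3, Stmn2, Stmn3 and Kif5a are highest in the HA IPs, Kif1a is as high in the untagged as in the HA IPs, Dync1h1 is highest in the untagged IPs at 343 and 401, Dynll2 drops in the untagged IPs only, and Map4 is lower in both kinds of IP than in input.

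The untagged IPs measure what sticks to antibody and beads without a tag. There, 25 members were higher and 29 lower than in the untagged input, against 29.4% and 25.5% of all genes. The median was -0.29 over members and 0.07 over all genes. The members split by transcript length. Of 28 members under 3000 bases with a mean count of at least 50, 27 had a negative value (median -1.56), and of 17 with 6000 bases or more, 16 had a positive one (median 0.97). The exceptions were Kif22 and Map1b. Over all genes with the same minimum, 34.2% of those under 3000 bases were positive (median -0.42) and 83.6% of those with 6000 bases or more (median 0.94), so the long members were near the background. Across these 58 members the correlation of log2 fold change with log2 length was r = 0.82 (rho = 0.80), and across 10606 genes r = 0.41 (rho = 0.42). For HA IP over input it was -0.02 over the members. Genes of 1 library are not independent replicates, and these points share their libraries, so the correlations are a description.

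**Figure D3:**
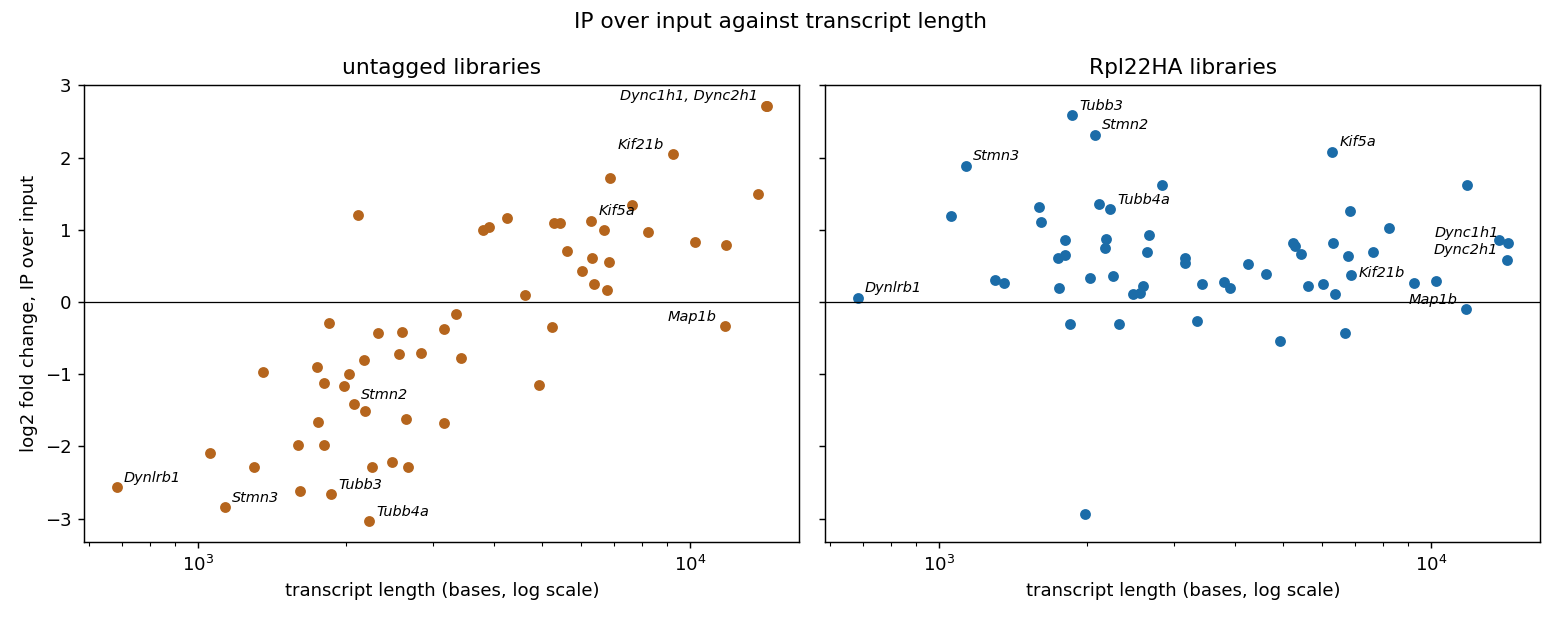
Log2 fold change of IP over input (y axis) against transcript length in bases (x axis, log scale) for 58 members with a mean count of at least 50, in untagged (left) and Rpl22HA (right) libraries. On the left, values run from -3.04 for Tubb4a to 2.72 for Dync2h1 and follow length, and on the right they do not.

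Among members with a mean count of at least 50, long motor messages had the largest values on untagged beads. Dync1h1, with 14342 bases, measured 343 and 401 CPM in the untagged IPs against 59.3 and 54.5 in the inputs (log2 2.72), more than in either HA IP. Dync2h1 had 109 and 110.0 against 17.6 and 16.03 (2.72), and Kif21b 132 and 148 against 33.5 and 34.1 (2.05). None of these 3 therefore had an IP level that exceeded the untagged one. The short messages were depleted there, as with Tubb4a (-3.04), Stmn3 (-2.84), Tubb3 (-2.66), Dynlrb1 (-2.56), Dync1i1 (-2.29) and Klc1 (-2.28).

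The difference of enrichment, Rpl22HA minus untagged (the HA-dependent value), was tested next, although tag and sex cannot be told apart in it. It was higher for 32 members and lower for 8, with 24.2% and 20.4% of all genes. The 8 became 16 without untagged IP 1, 12 without Rpl22HA IP 2, and 5 without Rpl22HA IP 1, Rpl22HA input 1 or untagged input 2. The largest positive differences were those of Tubb3 (5.25), Stmn3 (4.73), Tubb4a (4.33), Stmn2 (3.73) and Tubb2a (3.73). All 4 stathmins and 6 of 7 beta tubulins passed. Kinesin-1 heavy chains had smaller values, 0.95 for Kif5a and 0.71 for Kif5c, since both were also higher on untagged beads (1.13 and 0.55). Klc1 (2.64), Dynlrb1 (2.62) and Dynll2 (2.33) passed although their HA IPs were near input level. The negative ones held Dync2h1 (-2.13), Dync1h1 (-1.89), Kif21b (-1.78) and Kif13a (-1.34). These differences also followed length, with r = -0.70 (rho = -0.72) over the 58 members and r = -0.36 over 10606 genes, again as a description. Their median was 2.33 for members under 3000 bases, -0.19 for those of 6000 bases or more and -0.09 for those between.

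Partners outside the set were read from lists chosen with earlier results of these data known. Of 12 subunits of dynactin, the complex that couples dynein to cargo, 8 were higher over input, from 0.42 (Dctn2) to 0.92 (Dctn5), and 4 did not pass, among them Dctn1, the largest subunit, with -0.22 (adjusted p 0.31). Among kinesin adaptors 5 of 10 were higher and 2 lower: Mapk8ip3 (1.11) and the kinesin-2 adaptor Kifap3 (1.10) rose, and Hap1 (-0.64) and the mitochondrial Rhot2 (-0.62) fell. Tubulin-modifying enzymes had 6 of 17 tested higher and 1 lower, with the polyglutamylase Ttll7 at 2.27, the acetyltransferase Atat1 at 1.55 and the tyrosine ligase Ttl at 1.42. Of 17 other microtubule-associated proteins 7 were higher and 1 lower, led by Map7d2 (2.17) and Tppp3 (2.04). Of 11 plus-end and minus-end proteins 5 were higher, of 7 tubulin folding factors 3 were higher and 1 lower, of 7 severing proteins 1 was higher (Fign, 1.89), and of 9 dynein regulators 2 were higher and 2 lower (median -0.32). These counts stand beside 26.9% of all genes higher and 12.1% lower. On untagged beads 7 of the 11 plus-end and minus-end proteins were higher over input too. For this list the difference between both enrichments was higher for 2 and lower for 3, among them Clip1 (-2.56) and Clip2 (-1.63), both called higher over input. It was higher for 8 and lower for 0 of the dynactin subunits, and 5 and 0 of the kinesin adaptors. The counts were 7 and 3 for tubulin-modifying enzymes, and 2 and 5 for dynein regulators. Fign (1.53) did not pass.

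The second comparison asked how these genes differed between Brn3b cKO and control IPs. Only transcripts with a higher mean CPM in the HA IPs than in the untagged IPs of the first table were considered, as in the study's methods. Of 68 members that passed the filter, 44 met this and 24 did not, among them Dync1h1, Dync2h1, Map2, Kif1b and Kif5b. Stmn1 was lower, Kif22 was higher, and the remaining 42 did not pass (edgeR's quasi-likelihood test). Over the 6898 genes considered, 1.41% were higher and 2.96% lower, so that 1 in each direction among 44 members is near the background. The median log2 fold change was -0.27 over the members and -0.09 over all these genes. The split of calls over all genes depended on which transcripts entered the scaling: 97 were higher and 204 lower here (32.2% higher), and 262 and 219 (54.5%) when counts were restricted to these transcripts before scaling, which moved log2 values by 0.11. In that fit Kif22, Klc3 and Stmn1 were called. Where groups are said below not to overlap, the libraries are only described, since the share of all genes without overlap was not computed.

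Stmn1 measured 90.5, 105, 125 and 147 CPM in the controls and 55.8, 45.7, 50.4 and 87.4 in the Brn3b cKO IPs. Every cKO library lay below every control, with cKO 4 close to control 1. The log2 fold change was -0.97 ± 0.22 (adjusted p 0.030). With p adjusted over all filtered transcripts it was 0.052, and without control 3, control 4, cKO 1, cKO 2 or cKO 3 it ran from 0.057 to 0.11. The 3 other Stmn1 transcripts with a mean count over 20 had -0.62 to -0.82 and adjusted p of 0.060 to 0.15 over all transcripts. Within the stathmins, the share of Stmn1 per kilobase was 7.75% to 13.5% in controls and 7.03% to 11.1% in Brn3b cKO, so the shares overlapped.

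Kif22 measured 3.32, 3.44, 2.22 and 3.77 CPM in the controls and 6.87, 5.31, 7.24 and 7.89 in the Brn3b cKO IPs, from 43 to 52 and 71 to 157 counts. The groups did not overlap. The log2 fold change was 1.11 ± 0.24 (adjusted p 0.024), and it lost the call without control 3, control 4, cKO 3 or cKO 4 (adjusted p 0.051 to 0.097). The 4 tested Kif22 transcripts ran from 0.22 to 1.11, so the transcript that stands for the gene had the highest value. The summed markers of dividing cells overlapped between the groups, at 9.36 to 13.3 CPM in controls and 7.04 to 17.6 in cKO.

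The alpha and beta tubulins considered had negative values without passing, relative to the scaling used (given below). The 4 alpha tubulins considered ran from -0.46 to -0.28 and the 7 beta tubulins from -0.85 (Tubb6) to -0.31. Tubb3 measured 379, 314, 366 and 293 CPM in the controls and 215, 213, 300.2 and 301 in the cKO IPs (-0.39 ± 0.18, adjusted p 0.26), and the groups overlapped. Tubb4a (138, 123, 153 and 181 against 100.2, 91.5, 118 and 106) did not overlap but missed the threshold (-0.52 ± 0.17, adjusted p 0.11). DESeq2 called Tubb4a (adjusted p 0.040) and Tubb4b (0.034) lower, as did edgeR with the replicate number as a block (0.037 and 0.040). The isotype shares overlapped between the groups. Tubb3 made up 23.3% to 31.2% of the 6 beta tubulins per kilobase in controls and 27.3% to 30.4% in Brn3b cKO, and Tubb5 19.4% to 23.2% and 20.5% to 23.0%.

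The axonal genes enriched on tagged ribosomes also had small negative values that did not pass, except that Stmn2 and Stmn3 did with the replicate number as a block (adjusted p 0.037 and 0.038). Stmn2 measured 414, 402, 481 and 506 CPM in controls and 295, 256, 370.4 and 369 in cKO (-0.48 ± 0.18, adjusted p 0.15), with no overlap. Stmn3 measured 890.2, 515, 610.2 and 706 against 505, 376, 484 and 517 (-0.53 ± 0.20, adjusted p 0.15), with an overlap of 1 library. Kif5a had -0.23 ± 0.20, Kif5c -0.28 ± 0.17, Map1a -0.28 ± 0.15, Mapt -0.34 ± 0.21 and Dync1i1 -0.36 ± 0.19. Kif3a, Kif3c, Dync1li1, Dync1i2 and Map6 had values from -0.03 to 0.05.

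Klc3, a kinesin light chain, went the other way without passing. It measured 39.2, 36.7, 19.8 and 26.9 CPM in controls and 55.0, 41.4, 52.8 and 48.6 in cKO, with no overlap (0.69 ± 0.21, adjusted p 0.086). DESeq2 called it (adjusted p 0.042), as did edgeR with the replicate number as a block (0.034). Its share of the 4 light chains per kilobase was 5.97% to 11.02% in controls and 11.4% to 16.1% in cKO, without overlap, whereas that of Klc1 was 78.5% to 85.2% and 72.3% to 78.9%, overlapping at the edge. Of the 24 members not considered, Dync1h1 (0.69 ± 0.22, adjusted p 0.14 over all transcripts) and Map2 (0.47 ± 0.15, 0.15) had positive values.

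**Figure D4:**
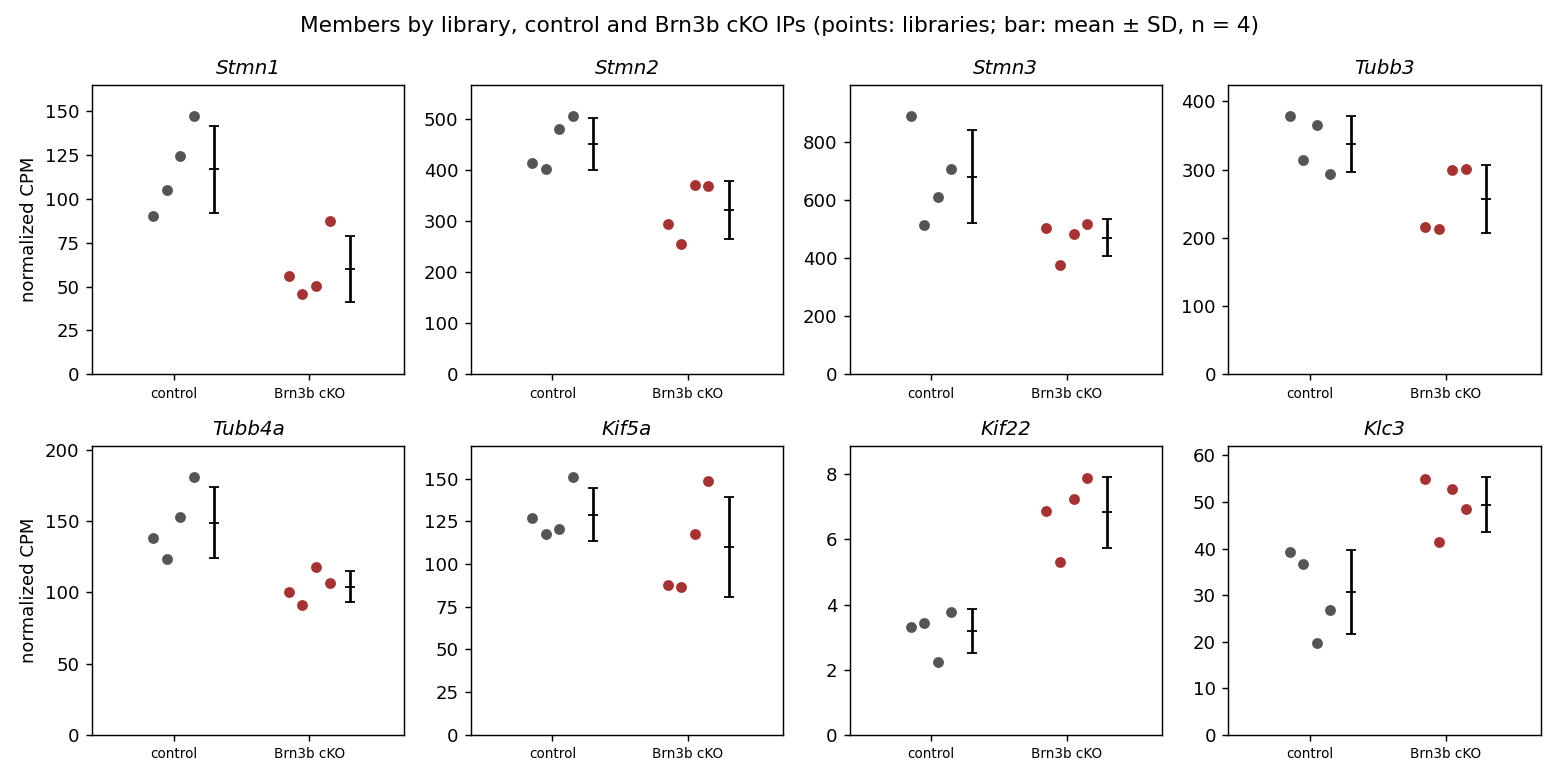
Normalized CPM (y axis) of 8 members in each control and Brn3b cKO IP (x axis), with bars for mean ± SD (n = 4). The groups do not overlap for Stmn1, Stmn2, Tubb4a, Kif22 and Klc3, and overlap for Stmn3, Tubb3 and Kif5a. Only Stmn1 and Kif22 passed the test. Klc3 was picked with its values in view. The share of all genes without overlap was not computed, so the number of panels without overlap is not a result about the members.

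Cell type markers moved with this comparison. The summed level of 12 cone genes was 4306 to 7501 CPM in controls and 8631 to 11990 in cKO IPs, with 9 of 12 higher (median log2 0.93) and none of them at 0. The sum of 11 pan-ganglion-cell genes was 3486 to 4997 and 2059 to 2823 CPM, with 4 of 11 lower (median -0.73). The 5 ipRGC genes summed to 283 to 414 and 170 to 228, with 2 of 5 lower (Tbx20 -1.69 and Prph -0.88) and a median of -0.23. Opn4 (-0.20), Eomes (-0.23) and Adcyap1 (0.25) did not pass. The 10 rod genes summed to 6641 to 8807 and 9323 to 14913. Control and cKO did not overlap in any of these 4 sums. The part of this shift in the members' values was not tested. When libraries were scaled to the pan-ganglion-cell genes, all log2 values moved up by about 0.78, so that any gene between -0.78 and 0 changed sign, most tubulins included, and Stmn1 had -0.21 (adjusted p 0.42). In that fit 21 of 44 members (47.7%) were called higher, Kif22 among them, against 60% of all genes considered, and 0.609% of all genes were lower. The scaling genes include the 4 that were called lower themselves (Rbpms2 -2.83, Sncg -1.18, Pou4f1 -1.12 and Nrn1 -0.95). This scaling is therefore not a neutral reference.

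Partner lists held few calls in Brn3b cKO. The 12 dynactin subunits, all considered, had a median of -0.30 and adjusted p of at least 0.13 (Dctn5). Adjusted p was at least 0.20 among the 5 kinesin adaptors (Hap1) and the 8 tubulin-modifying enzymes (Ttl) considered. Of 12 other microtubule-associated proteins 1 passed, Tppp3 (-1.73, adjusted p 2.2e-04), a tubulin polymerization-promoting protein.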

How the data were processed

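The deposited values are raw counts per Ensembl transcript, which the authors made from Smart-seq3 libraries read as paired 37-base ends (build mm10 per the submitters' processing notes). Which annotation release they counted against is not stated in the sources at hand. Inputs were 1.5% of the lysate. Of 117860 transcripts 116747 matched GENCODE M21 by identifier, which gave positions, lengths and sequences. Transcripts of a gene share reads and were not summed.

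Counts were filtered (filterByExpr), leaving 45189 and 43975 transcripts, scaled by TMM and fitted by group with edgeR 4.0.16 in R 4.3.3 (quasi-likelihood test, Benjamini-Hochberg adjustment over transcripts, 21198 of them in the Brn3b cKO comparison). The common biological coefficient of variation was 0.148 and 0.251. DESeq2 1.42.0 was an alternative. The fit was tested on simulated data with 200 changed transcripts. Of changes of 1 on the log2 scale it recovered 77% for IP over input and 67% for Brn3b cKO with trended dispersions, and 59% and 53% with gene-specific ones, with 5.35%, 4.02%, 8.14% and 6.75% of calls false in the same order. Normalized CPM use TMM library sizes.

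Named members were those called with a mean count of at least 50, up to 12 per direction by fold change, and the member of highest CPM in each role group. Others, such as Klc3, Kif5b, Dync1h1 and Mapt, were picked with their values already in view. The members and gene lists were chosen with earlier results of these data known.

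All 16 columns were assigned from labels. Replicates differed by more than sampling noise. The study's methods call replicates biological and each lysate 1 animal, although the labels of the first table name pooled sexes. Same-numbered IP and input were taken to share a lysate, since inputs were saved from it, although the labels do not state it. Their deviations correlated at 0.02 and 0.10. With 2 libraries a group the fit left 4 residual degrees of freedom, so the p-values also lean on the spread shared over transcripts. Some tubulin tail sequences are not reported here.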

Additional observations from a re-analysis of the deposited data

Results flagged for a closer look

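In 4 of 78 groups of 4 libraries screened, 1 library stood apart from the other 3, with a gap to its nearest neighbour of 0.875 of the group's range for Dync1h1 and 0.875 for Tuba1a in controls, 0.872 for Map2 in controls and 0.944 for Kif21b in Brn3b cKO IPs. Chance marks about 1 in 20 groups in this way, so 4 of 78 is about its rate.

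The enrichment over input differed between Rpl22HA and untagged retinas, by the test of the difference itself, for 29 named members. The log2 difference was above 0 for the tubulins Tubb3 (5.25), Tubb4a (4.33), Tubb2a (3.73), Tubb4b (3.30), Tuba1a (2.63), Tubb2b (2.37), Tuba4a (2.33), Tubb5 (2.31), Tubg1 (1.97) and Tuba1b (1.51). It was above 0 for the stathmins Stmn3 (4.73), Stmn2 (3.73), Stmn1 (3.28) and Stmn4 (2.59). Among motors and light chains it was above 0 for Dync1i1 (3.22), Klc1 (2.64), Dynlrb1 (2.62), Dynll2 (2.33), Klc2 (2.23), Kif3a (0.98), Kif5a (0.95), Kif5c (0.71) and Dync1li1 (0.63), and below 0 for Dync2h1 (-2.13), Dync1h1 (-1.89) and Kif21b (-1.78). For the associated proteins Mapt, Map1a and Map4 it was 1.17, 0.84 and 0.61.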

How the results depend on the processing

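Members with few counts had wide errors over input, such as 0.70 for Tubb6. Of the 32 members called higher over input, 13 were called under every alternative, and 18 when counts were restricted beforehand to transcripts higher in HA than in untagged IPs. The 13 were Kif1a, Kif5a, Kif5c, Map1a, Mapt, Stmn2, Stmn3, Tuba4a, Tubb2a, Tubb3, Tubb4a, Tubb4b and Tubg1. Among the others, Klc2 lost the call in 14 of 20 alternatives, Tubb2b in 10 of 20, and Dync2h1 and Kif26b in 9 of 18 each. Leaving out 1 library gave 16 to 31 calls. The single member lower over input became 2 (selected transcripts only, RLE factors, library totals), 3 (no filter), 4 (upper quartile factors) or 6 (only the 4 Rpl22HA libraries, or restricted counts), and 0 to 6 without 1 library. The 8 members with a lower HA-dependent value became 5 to 16. In Brn3b cKO, 1 member was higher, 0 to 1 without 1 library, 21 with pan-ganglion-cell scaling, 2 with restricted counts and 2 with DESeq2. The 1 lower became 0 to 1 without 1 library, 0 with p adjusted over all filtered transcripts, 0 with pan-ganglion-cell scaling and 3 with DESeq2. The causes were not tested. Calls over all genes were counted only in the main fits and, for Brn3b cKO, with pan-ganglion-cell scaling and restricted counts. The DESeq2 counts therefore have no background beside them.

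With the replicate number as a block, 3 members were lower over input (Map4, Tuba1c, Tuba8), the 8 lower HA-dependent values became 9 with all 8 kept, and the calls of 32 higher members were the same in both comparisons. In the second table nothing in the labels or methods pairs control and cKO by number, and deviations of same-numbered libraries correlated at 0.52, 0.32, 0.09 and 0.05. There the block gave 2 higher (Kif22, Klc3) and 5 lower (Stmn1, Stmn2, Stmn3, Tubb4a, Tubb4b), and Kif3a had -0.012. The share of all genes called with the block was not computed, so these counts cannot be set against a background.

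Signs turned for small values. Over input, Dynll2 had -0.00162 (RLE), -0.132 (upper quartile), -0.000554 (no filter), -0.0737 (only Rpl22HA libraries), -0.28 (restricted) and -0.00164 (DESeq2), and -0.22 to 0.19 without 1 library. Dynlrb1 had -0.0487, -0.179, -0.0475, -0.12, -0.32 and -0.0488 in the same order, -0.0378 with library totals, and -0.23 to 0.13. Dync1li1 had -0.0144 (upper quartile) and -0.16 (restricted), Klc1 -0.0214 and Stmn4 -0.0755 (both restricted). Without 1 library Map1b ran from -0.27 to 0.11, Kif21b from -0.17 to 0.36, Kif5b from -0.10 to 0.34 and the HA-dependent value of Kif22 from -1.35 to 0.53. In Brn3b cKO, Dync1li1 had -0.0157 and Kif3a -0.0124 with library totals, and without 1 library Dync1li1 ran from -0.0499 to 0.0729, Kif3a from -0.16 to 0.12 and Kif1a from -0.0567 to 0.29. Pan-ganglion-cell scaling, which moved all values up alike, gave Tubb3 0.37, Tubb4a 0.27, Tubb4b 0.30, Tubb2a 0.41, Tubb2b 0.50, Tubb5 0.40, Tuba1a 0.33, Tuba1b 0.43, Tuba4a 0.44, Tubg1 0.45, Stmn2 0.28, Stmn3 0.27, Stmn4 0.57, Kif5a 0.53, Kif5c 0.50, Klc1 0.49, Klc2 0.53, Kif21a 0.58, Map1a 0.51, Mapt 0.46, Dync1i1 0.43, Dynll2 0.58 and Dynlrb1 0.64.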
